A study of Mus musculus with 12 samples.

Results

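Integrins are adhesion receptors made of an alpha and a beta chain that must pair before they reach the cell surface, and leukocytes use them to hold on to matrix and to other cells. The beta2 chain Itgb2 pairs with the CD11 alpha chains Itgal (CD11a), Itgam (CD11b) and Itgax (CD11c), and Icam1, itself a surface protein, is a ligand of the Itgal and Itgam pairs. Airway macrophages of the lung are known for high surface CD11c and low surface CD11b, a pattern that sets them apart from most other macrophages and from monocytes.

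The transcripts of 10 genes were followed in airway macrophages (AMs): Itgb2 and its partners Itgal, Itgax and Itgam, the beta1 chain Itgb1 with the alpha chains Itga5 and Itga4, the alpha chain Itgav and its partner Itgb5, and Icam1. They were chosen by name, from a list that set no threshold on their values but was drawn up with earlier results of these data known, and all 10 were among the 20551 genes of the count table and among the 13729 that passed the filter on low counts. The cells came from Scnn1b-Tg mice, in which a transgene driven by the club cell promoter CCSP raises the sodium channel subunit Scnn1b in the airway epithelium and mucus obstructs the airways, and from wild-type (WT) littermates. All mice had the C57BL/6 background and were 6 weeks old. AMs were cultured in medium or with 100 ng/ml Pseudomonas aeruginosa lipopolysaccharide (LPS) for 12 h. The sources differ on how the cells were obtained. The labels describe adherent cells from the pooled lavages of 3 to 4 animals, whereas the methods of the study state that AMs sorted from digested lungs on CD45, Siglec-F and CD11c were the ones treated with LPS and sequenced. If the cells were sorted, Itgax, which encodes CD11c, was part of the gate in all 12 libraries. Samples of 1 genotype with the same number in their titles are called a pool here and were taken as the same animals. There were 3 WT pools (numbered 16, 17 and 18) and 3 Scnn1b-Tg pools (17, 18 and 19), hence 12 libraries in 4 groups of 3. Pools of different genotype are different animals, also where they share a number. Labelled batch 1 held WT pools 16 and 17 and Tg pool 17, and batch 2 held WT pool 18 and Tg pools 18 and 19.

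The deposited counts summed to between 48191248 and 60896505 per library. The macrophage genes Siglecf, Marco, Pparg, Mrc1 and 8 others were all present, with a summed level of 8631 to 16944 CPM (counts relative to the library total, scaled by the TMM method). Siglecf, a sialic acid receptor used to identify these cells, fell from between 103 and 128 CPM over the 6 medium libraries to between 5.08 and 13.5 CPM over the 6 LPS libraries, and with LPS 7 of the 12 macrophage genes fell and 3 rose in each genotype (edgeR, adjusted p below 0.05), against 16.2% lower and 15.5% higher over all genes in WT and 18.7% and 19.3% in Tg. Summed marker levels were 44.3 to 216 CPM for 8 monocyte genes, 10.1 to 28.8 CPM for the 6 of 10 neutrophil genes analysed here, 2.74 to 20.2 CPM for 6 of 8 dendritic cell genes, 1.57 to 4.05 CPM for 11 of 12 lymphocyte genes, 32.7 to 112 CPM for 7 epithelial genes, at most 0.915 CPM for 5 endothelial genes and at most 0.246 CPM for 2 of 4 eosinophil genes. The targeted gene Scnn1b held 0 to 40 counts in every library of both genotypes, so that the transgene, which is active in club cells, left no check of the labels in these cells.

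All positions are on mm10, from GENCODE M21. Itgal (chromosome 7, 127296260 to 127335138), Itgam (chromosome 7, 128062640 to 128118491) and Itgax (chromosome 7, 128129547 to 128150657) lie on the plus strand of the same stretch of chromosome 7, with Itgam and Itgax next to each other. Itgb2 is at chromosome 10, 77530252 to 77565708, plus strand. Itgb1 is at chromosome 8, 128685654 to 128733200, plus strand, Itga5 at chromosome 15, 103344286 to 103366763, minus strand, and Itga4 at chromosome 2, 79255426 to 79333123, plus strand. Itgav is at chromosome 2, 83724397 to 83806916, plus strand, Itgb5 at chromosome 16, 33829665 to 33949338, plus strand, and Icam1 at chromosome 9, 21015985 to 21028817, plus strand. Of the 5024 exon bases of Itgam, 3450 are shared on the same strand with Gm49368, a gene not analysed here, so the level of Itgam is uncertain. Exons of Icam1 overlap the antisense gene Gm47079, also not analysed here, by 511 bases, those of Itga4 overlap Cerkl and those of Itgav overlap Gm13684. Reads were counted without regard to strand, so reads of such neighbours cannot be told apart. Cerkl and Gm13684 held at most 85 and 16 counts in a library.

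The promoter sequences are shown for Icam1 and Itga5, the genes of the list that rose most with LPS. They are the 250 bases before and 50 bases after the start in RefSeq, build GRCm38.p6, at chr9:21015690-21015989 on the plus strand and chr15:103366742-103367041 on the minus strand. Capitals mark GGAAATTCC, a sequence that the inflammatory transcription factor NF-kappaB is known to bind.
Icam1: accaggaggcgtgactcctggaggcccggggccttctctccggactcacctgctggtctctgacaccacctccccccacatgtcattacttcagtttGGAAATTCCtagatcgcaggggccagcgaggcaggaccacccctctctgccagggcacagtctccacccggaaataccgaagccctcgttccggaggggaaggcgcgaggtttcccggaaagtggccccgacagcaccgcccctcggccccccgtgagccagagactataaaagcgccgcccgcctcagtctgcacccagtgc
Itga5: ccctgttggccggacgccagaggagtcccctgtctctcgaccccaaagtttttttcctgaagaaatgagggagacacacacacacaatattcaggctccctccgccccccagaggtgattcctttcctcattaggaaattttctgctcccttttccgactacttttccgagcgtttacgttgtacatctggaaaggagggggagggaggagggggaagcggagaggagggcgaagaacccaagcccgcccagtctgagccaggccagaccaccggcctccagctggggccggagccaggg
A promoter was matched for 8 of the 10 genes (Itgal and Itgb2 were not matched). Searched on both strands, GGAAATTCC was in the Icam1 window, with its first base at position -153 from the start, and in none of the other 7, and 0.317% of 32851 RefSeq promoters of that length held it. The looser NF-kappaB consensus, present in 8.46% of them, was in none of the 8. GAGGAA, the core that the macrophage factor PU.1 binds, was on one strand or the other of Itga5, Itgav, Itgam and Itgb1, and in 28.3% of all promoters. TGANTCA, the AP-1 site, was in Itgax alone of the 8, and in 7.81% of all promoters. A match of letters describes the sequence and not binding.

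Levels can be compared between genes only per length, and were expressed as CPM per kb of merged exons. Itgb2 stood far above the rest, at 1018 ± 40 CPM per kb in WT medium (SD, n = 3 in this and all following groups), 1052 ± 56.5 in Tg medium, 885 ± 59.8 in WT with LPS and 800 ± 76.2 in Tg with LPS. In WT medium it was followed by Itgb1 at 106 ± 15.3, Itgax at 84.8 ± 6.97, Itgb5 at 58.2 ± 10.4, Icam1 at 52.5 ± 8.11, Itgal at 45.1 ± 4.89 and Itga5 at 38.8 ± 4.85. The ranges of Itgb1 and Itgax overlapped, and so did those of each neighbour from Itgb5 to Itga5, so their order was not fixed by 3 libraries. Itgav at 2.45 ± 0.80, Itgam at 1.71 ± 0.13 and Itga4 at 0.964 ± 0.0685 CPM per kb formed a low group, in which Itgav and Itgam overlapped. In the group means the CD11c chain Itgax was measured at 67.9 to 101 CPM per kb and the CD11b chain Itgam at 1.47 to 2.12. The low Itgam value carries the limit given above, since reads in the exons shared with Gm49368 may not have been counted for it.

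Icam1, Itga5 and Itgb5 were among the genes whose rank changed with LPS. Icam1 ranked 5 of the 10 genes in WT medium and 7 in Tg medium, at 33.6 ± 3.33 CPM per kb. With LPS it ranked 2 in both genotypes, at 166 ± 8.06 in WT and 174 ± 13.7 in Tg, and its range overlapped that of no other gene of the list. Itgb5 went the other way, from rank 4 in both medium groups to rank 7 in both LPS groups, at 20.6 ± 4.08 and 22.2 ± 4.69 CPM per kb. Itga5 went from rank 7 in WT and 6 in Tg to rank 4 in both. The merged exons of Icam1 are longer than its longest transcript, and with the latter as length Icam1 and Itgb5 changed places in WT medium, as did Icam1 with Itga5 and Itgam with Itga4 in Tg medium.

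**Figure D1:**
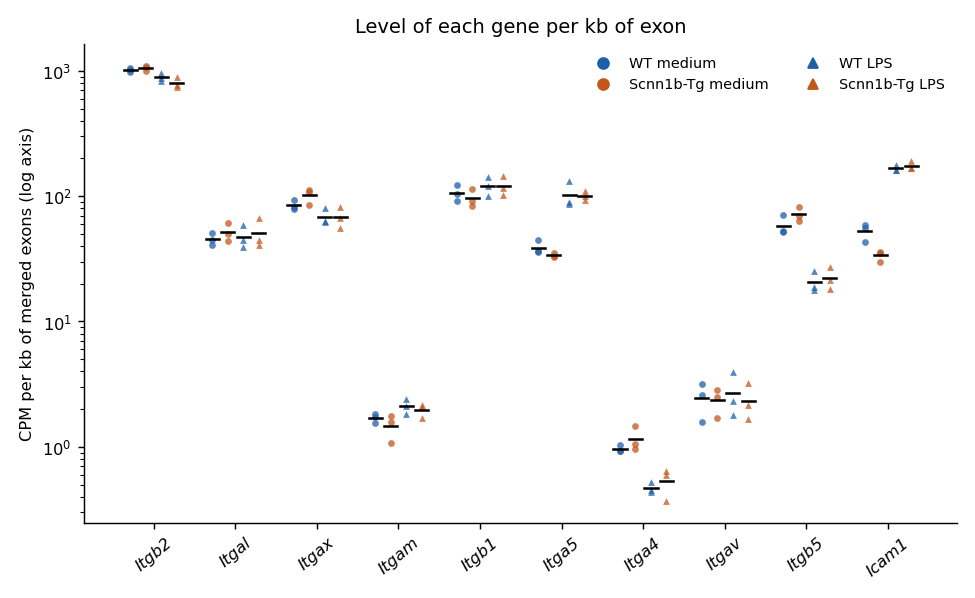
Level of each of the 10 genes in CPM per kb of merged exons (log axis), 1 point per library, with circles for medium, triangles for LPS, blue for WT, orange for Scnn1b-Tg and a black bar for the mean of 3. Itgb2 lies between 742 and 1097 in every library, Itgav, Itgam and Itga4 lie below 4, and Icam1 ranks next to Itgb2 with LPS.

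The first comparison asked how 12 h of LPS changed these transcripts in WT AMs. Icam1 and Itga5 rose and Itgb5 and Itga4 fell, which is 2 genes in each direction and 4 of 10 in all (edgeR quasi-likelihood test, Benjamini-Hochberg adjusted over 13729 genes, two-sided, adjusted p below 0.05). Over all genes tested 31.8% were called, 15.5% higher and 16.2% lower, so the share among the 10 was near that of the genome. The median log2 change was 0.10 over the 10 genes and 0.00 over all genes. In bulk RNA, fewer cells of a type and less RNA per cell cannot be told apart. Marker levels moved with LPS as well. The summed monocyte markers were 67.3 to 83.2 CPM in medium and 176 to 216 CPM with LPS in WT, and 44.3 to 63.1 and 137 to 195 CPM in Tg, without overlap in either genotype. Most of this was Treml4, whereas the classical monocyte genes Ccr2 and Ly6c2 stayed at or below 0.635 and 1.5 CPM in every library. The summed macrophage markers were 11551 to 12468 CPM in medium and 8631 to 10816 CPM with LPS in WT and, with overlap, 13625 to 16944 and 10298 to 15509 CPM in Tg. Most of this sum was Chil3, with group means of 9971 and 7954 CPM in WT and 12604 and 9899 CPM in Tg. The dendritic cell sum was higher with LPS in both, without overlap, at the values given with the genotype comparisons. The part of these shifts in the changes of the 10 genes was not tested.

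Icam1, the ligand, had 257, 241 and 189 CPM in the medium libraries of WT pools 16, 17 and 18, and 707, 766 and 702 CPM in their LPS libraries. The ranges did not overlap and every pool rose. The fold change was 3.18 (log2 1.67, SE 0.11, edgeR adjusted p = 9.27e-07). Itga5, whose pair with Itgb1 is the classical fibronectin receptor, went from 178, 219 and 177 to 424, 648 and 440 CPM. Pool 17 was the highest under both conditions, and again the groups lay apart. The fold change was 2.63 (log2 1.39, SE 0.14, edgeR adjusted p = 1.85e-05).

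Itgb5, which pairs with Itgav to bind vitronectin, had 184, 249 and 187 CPM in medium and 66.6, 89.7 and 63.0 CPM with LPS. All 3 LPS libraries were below all 3 medium libraries (log2 change -1.50, SE 0.14, edgeR adjusted p = 1.16e-05). Itga4, the alpha chain of the VCAM-1 receptor, was scarce, at 14.6, 12.9 and 12.9 CPM in medium and 6.05, 7.34 and 6.29 CPM with LPS. It too fell without overlap (log2 change -1.04, SE 0.18, edgeR adjusted p = 0.00109). Itgav, the partner of Itgb5, did not pass the test (log2 0.15, SE 0.25, edgeR adjusted p = 0.709) and ranged from 17.1 to 34.1 CPM in medium and from 19.2 to 42.8 CPM with LPS. It was higher with LPS in WT pools 17 and 18 and lower in pool 16.

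The beta2 family moved little in WT. Itgb2 had 2980, 3224 and 3114 CPM in medium and 2650, 2903 and 2548 CPM with LPS, so the groups did not overlap, but the change did not pass (log2 -0.20, SE 0.08, edgeR adjusted p = 0.0721), and passed in 6 of 22 alternatives. Itgax had 381, 445 and 395 CPM in medium and 298, 389 and 302 CPM with LPS, with 1 LPS library inside the medium range (log2 -0.31, SE 0.14, adjusted p = 0.116). Itgam, at 7.84 to 9.16 CPM in medium and 9.23 to 12.1 CPM with LPS, did not overlap and did not pass (log2 0.32, adjusted p = 0.219). Itgal stayed between 259 and 385 CPM (log2 0.06, adjusted p = 0.750). Itgb1, the beta chain of Itga5 and Itga4, had 427, 498 and 373 CPM in medium and 493, 583 and 411 CPM with LPS (log2 0.19, SE 0.09, edgeR adjusted p = 0.137). In all, 6 of the 10 genes did not overlap between the groups, against 38.7% of all genes.

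With the pool as a block 7 of the 10 genes were called in WT, against 38.1% of all genes in that fit. This fit added Itgb2 (log2 -0.20, adjusted p = 0.0240), Itgax (log2 -0.31, adjusted p = 0.0125) and Itgb1 (log2 0.19, adjusted p = 0.0194), all in edgeR with the pool as a fixed term. Their sizes were those of the fit without the block.

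The same comparison in Scnn1b-Tg AMs called 7 of the 10 genes, 3 higher and 4 lower (edgeR adjusted p below 0.05), where 38.1% of all genes were called, 19.3% higher and 18.7% lower. Icam1, Itga5 and Itgb1 rose, and Itgb5, Itga4, Itgax and Itgb2 fell. The median log2 change of the 10 genes was -0.06, against -0.02 over all genes, and 6 of the 10 did not overlap between the groups, against 43.8% of all genes.

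Icam1 had 158, 152 and 130 CPM in the medium libraries of Tg pools 17, 18 and 19, and 724, 726 and 828 CPM with LPS. Pool 19 was the lowest in medium and the highest with LPS. The fold change was 5.20 (log2 2.38, SE 0.11, edgeR adjusted p = 6.32e-08). Itga5 rose from 174, 164 and 161 CPM to 544, 458 and 493 CPM, a fold of 2.99 (log2 1.58, SE 0.14, edgeR adjusted p = 5.18e-06). The medium values lay close together and far below those with LPS.

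Itgb5 fell from 291, 223 and 248 CPM to 97.0, 64.1 and 76.1 CPM (log2 -1.69, SE 0.14, edgeR adjusted p = 3.45e-06). Itga4 fell from 20.4, 14.6 and 13.5 CPM to 9.03, 8.37 and 5.16 CPM (log2 -1.10, SE 0.18, edgeR adjusted p = 0.000506). Tg pool 17 had the highest value of both genes under both conditions, and no LPS library reached a medium library.

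Itgax fell from 516, 408 and 538 CPM to 390, 268 and 320 CPM (log2 -0.59, SE 0.14, edgeR adjusted p = 0.00582). Itgb2 fell from 3347, 3017 and 3271 CPM to 2705, 2266 and 2354 CPM (log2 -0.40, SE 0.08, edgeR adjusted p = 0.00212). Neither overlapped between the groups. Itgb1 rose in each pool, from 466, 341 and 371 CPM to 587, 414 and 474 CPM, but the groups overlapped (log2 0.32, SE 0.09, edgeR adjusted p = 0.0156), and without the batch term the adjusted p was 0.189. Leaving out the medium library of Tg pool 18, or the LPS library of pool 17 or of pool 19, gave it 0.0654, 0.0568 and 0.0585.

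Of the chains not called in Tg, Itgam ranged from 5.41 to 8.86 CPM in medium and from 8.60 to 10.8 CPM with LPS (log2 0.43, SE 0.18, edgeR adjusted p = 0.0870). Without the medium library of Tg pool 18 its adjusted p was 0.0463, at a log2 change of 0.58. Itgal (log2 -0.05) and Itgav (log2 -0.07) had adjusted p of 0.803 and 0.864. Taken pool by pool over both genotypes, Icam1, Itga5, Itgb1 and Itgam were higher with LPS in 6 of 6 pools, and Itgb5, Itga4, Itgax and Itgb2 lower in 6 of 6, while Itgal was higher in 3 and Itgav in 4. The log2 changes of Itgb5 lay between -1.80 and -1.47 and those of Itgb2 between -0.47 and -0.15.

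**Figure D2:**
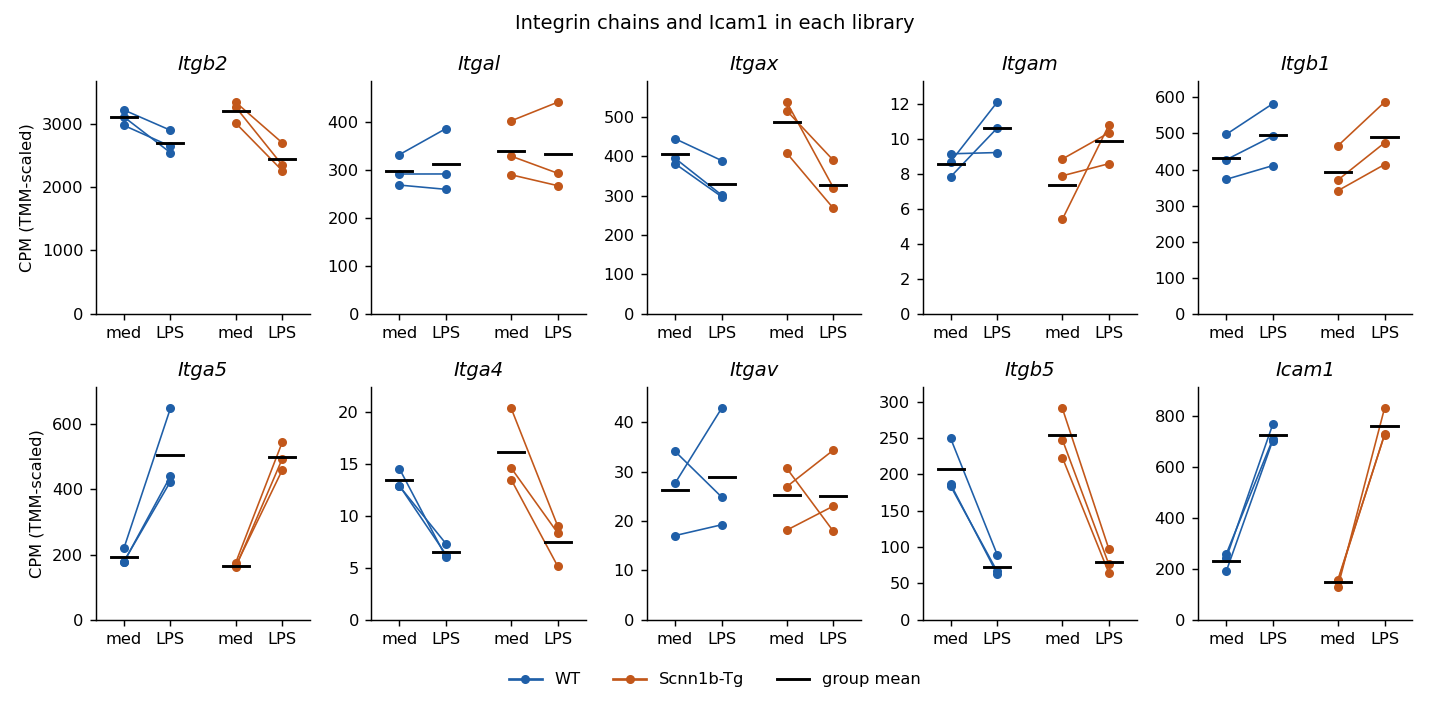
CPM of each of the 10 genes in every library (linear axes from 0), with a line joining the medium and LPS libraries of a pool, blue for the 3 WT pools, orange for the 3 Scnn1b-Tg pools and a black bar for the group mean. Icam1 and Itga5 rise and Itgb5 and Itga4 fall in all 6 pools without overlap within a genotype, while Itgal and Itgav go both ways.

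**Figure D3:**
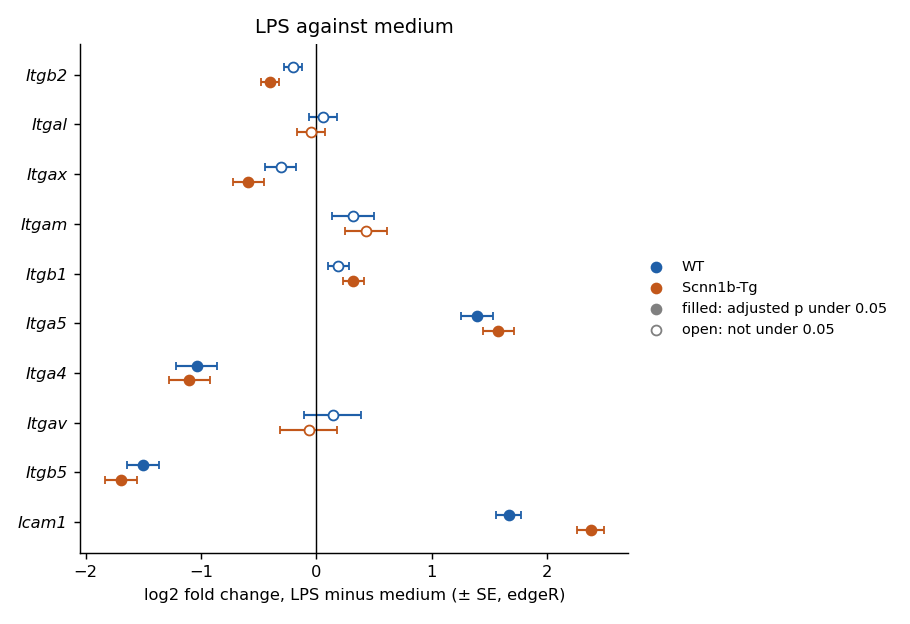
Fitted log2 change with LPS (x axis, ± SE, edgeR) for the 10 genes in WT (blue) and Scnn1b-Tg (orange), with filled points for an adjusted p below 0.05. Icam1 at 1.67 and 2.38 and Itgb5 at -1.50 and -1.69 are the ends of the range, and Itgb2, Itgax and Itgb1 are filled in Scnn1b-Tg alone.

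Whether the response differed between the genotypes was tested as the interaction of genotype and LPS. In edgeR it called 0 of the 10 genes and 0 of the 13729 tested, and at an unadjusted p below 0.05 it held 1 of the 10 and 5.95% of all genes. That gene was Icam1, whose log2 change with LPS was larger in Tg by 0.71 (SE 0.15, 95% interval 0.37 to 1.05, unadjusted p = 0.000729, adjusted p = 0.329). Pool by pool, Icam1 rose by log2 1.46, 1.67 and 1.89 in WT and by 2.20, 2.25 and 2.67 in Tg, with no overlap. DESeq2, with the same design and genes, called the Icam1 interaction (log2 0.71, SE 0.17, adjusted p = 0.00909) and 0.561% of all genes. Over the 21 alternatives the adjusted p ran from 0.00909 to 0.715, and DESeq2 was the only one below 0.05. The calls of Itgb2, Itgax and Itgb1 in Tg and not in WT were not shown to differ: their interactions were -0.19 (adjusted p = 0.897), -0.28 (0.936) and 0.13 (0.971) on the log2 scale in edgeR.

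The remaining comparisons set Scnn1b-Tg against WT AMs without and with LPS. In medium edgeR called 0 of the 10 genes, against 0.335% of all genes, with 4 of the 10 and 13.4% of all genes at an unadjusted p below 0.05. Icam1 was lower in Tg, at the 158, 152 and 130 CPM given above against 257, 241 and 189 CPM in WT, a fold of 0.661 (log2 -0.60, SE 0.11, 95% interval -0.84 to -0.35, unadjusted p = 0.000262, edgeR adjusted p = 0.0589). The difference was -0.66 within batch 1 and -0.43 within batch 2. DESeq2 called it (log2 -0.60, adjusted p = 0.000185) where it called 3.61% of all genes, and over 21 alternatives the adjusted p ran from 0.000185 to 0.267, with DESeq2 again the only one below 0.05. This difference and the interaction rest on the same medium libraries.

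Itgb5 (log2 0.40, SE 0.14), Itgal (log2 0.32, SE 0.13) and Itgax (log2 0.32, SE 0.14) had unadjusted p of 0.0160, 0.0267 and 0.0433 in Tg against WT in medium, and edgeR adjusted p of 0.251, 0.297 and 0.351. For Itgax, 2 of 3 Tg libraries were above all WT libraries, and within batch 1 and batch 2 the differences were 0.33 and 0.25 on the log2 scale. Icam1 and Itga5 were the 2 genes that did not overlap between the genotypes in medium, both lower in Tg. Over all genes, 9.38% were lower in Tg without overlap, a share that leaves out genes higher in Tg. Itga5 nonetheless differed by a log2 of only -0.14 (SE 0.14, 95% interval -0.45 to 0.17, edgeR adjusted p = 0.731).

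With LPS 0 of the 10 genes differed between the genotypes, in edgeR and DESeq2 alike, against 0.051% and 1.06% of all genes, and 0 had an unadjusted p below 0.05 in edgeR, against 7.12%. The fitted log2 differences ran from -0.12 (Itgam) to 0.28 (Itga4). Icam1 had 707, 766 and 702 CPM in WT and 724, 726 and 828 CPM in Tg (log2 0.11, 95% interval -0.13 to 0.36, edgeR adjusted p = 0.981). For Itgb2 the interval was -0.29 to 0.07 and for Itga5 -0.26 to 0.36. All 10 genes overlapped between the genotypes with LPS, against 9.11% of all genes that did not. Beside these comparisons stand differences in marker levels. In medium, where Icam1 had the values given above, the monocyte sum was lower in Tg (44.3 to 63.1 against 67.3 to 83.2 CPM) and the macrophage sum higher (13625 to 16944 against 11551 to 12468 CPM), both without overlap, while with LPS both sums overlapped between the genotypes. The single genes of these lists did not all go with the sums. The median log2 difference of the 6 monocyte genes tested was 0.39 in medium, and Ace had 14.1 CPM in WT and 20.1 CPM in Tg. Most of the macrophage sum was Chil3, at 9971 and 12604 CPM, while Fabp1 (7.41 and 5.12 CPM) and Cidec (20.4 and 17.9 CPM) were lower in Tg. In medium 0 of these 6 and 0 of the 12 macrophage genes were called. Summed neutrophil markers were 11.5 to 14.5 CPM in WT and 18.2 to 28.8 CPM in Tg in medium, and 10.1 to 12.8 and 14.99 to 19.9 CPM with LPS. Summed dendritic cell markers, most of which was Ccr7, were 2.74 to 3.60 and 5.17 to 7.28 CPM in medium and 9.37 to 10.1 and 13.4 to 20.2 CPM with LPS. Of the 4 dendritic cell genes tested, 1 was called higher in Tg in medium, against 0.335% of all genes, and 0 with LPS. In medium 0 of the 4 neutrophil and 0 of the 6 epithelial genes tested were called (edgeR, adjusted p below 0.05). Summed epithelial markers were lower in Tg, at 79.6 to 104 and 40.6 to 70.1 CPM in medium and 76.8 to 112 and 32.7 to 63.4 CPM with LPS. Their part in the values of the 10 genes was not tested.

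**Figure D4:**
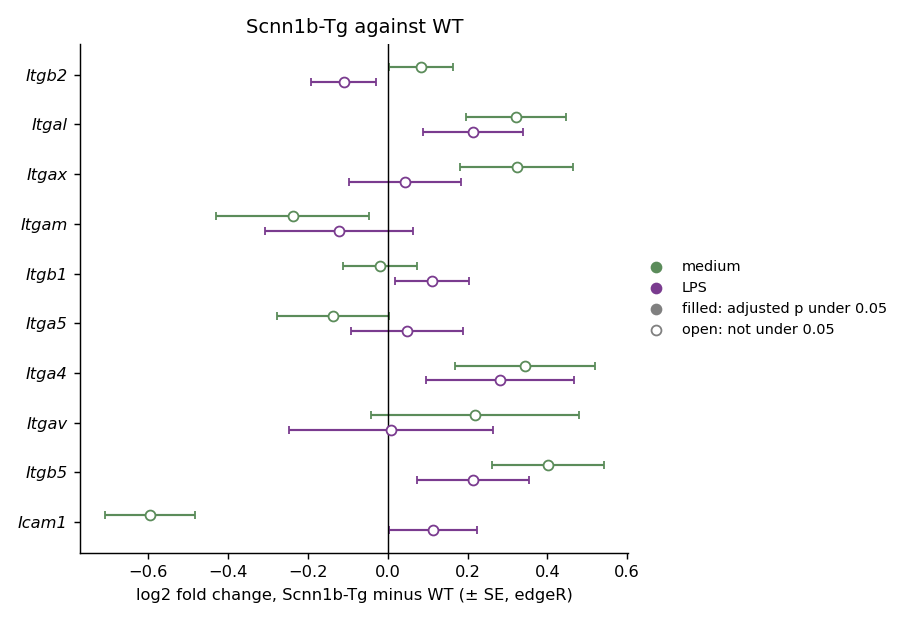
Fitted log2 difference between Scnn1b-Tg and WT (x axis, ± SE, edgeR) for the 10 genes in medium (green) and with LPS (purple), with open points for an adjusted p not below 0.05. All points are open, and Icam1 in medium, at -0.60, is the farthest from 0.

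The chain composition was compared within a library, where depth cancels, from CPM per kb. Among the 4 CD11 chains, Itgax made up 64.6% on average in medium and 57.2% with LPS, Itgal 33.6% and 40.7%, Itgam 1.14% and 1.75%, and Itgad, the CD11d chain, 0.606% and 0.423%. Itgax and Itgad had a smaller and Itgal and Itgam a larger share in 6 of 6 pools. The mean change was -7.48 percentage points for Itgax (SD 1.61 over 6 pools) and 7.06 for Itgal (SD 1.56). Each of these changes, and that of the log2 ratio of Itgam to Itgax (from -5.88 to -5.05), had p = 0.03125 in an exact sign-flip permutation test over the pools, two-sided, the smallest that 6 pools can give. After adjustment over the 15 permutation tests of these quantities, within pools and between genotypes, it was 0.09375. That is the smallest adjusted value 6 pools can give within this set of 15 tests, so none could have passed. The limit comes from the choice of that set, which holds the genotype tests, as well as from the number of pools. The adjusted tests therefore could not decide whether the shares changed. With Itgam left out of the sum, an alternative chosen after seeing the data because of its shared exons, the changes were -7.21 and 7.39 points. Between the genotypes the exact permutation p of the 5 quantities was between 0.1 and 0.7 with 3 libraries against 3, where 0.1 is the smallest possible.

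Against Itgb2, the CD11 chains together were 13.02% ± 0.758 in WT medium, 14.7% ± 1.24 in Tg medium, 13.4% ± 1.42 in WT with LPS and 15% ± 1.90 in Tg with LPS. Itgb2 made up 84.9% to 86.3% of all beta chain RNA in the 4 group means. Itgb1 rose from 8.95% and 7.86% of it in WT and Tg medium to 11.8% and 12.7% with LPS, and Itgb5 fell from 4.90% and 5.83% to 1.99% and 2.34%. Itga5 as a share of Itgb1 was 36.7% ± 2.33 and 35.5% ± 4.44 in medium and 83.9% ± 11.2 and 84.8% ± 7.58 with LPS. The lowest LPS library, at 71.1%, was well above the highest medium library, at 39.8%. These shares of RNA were not tested and need not be shares of protein.

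**Figure D5:**
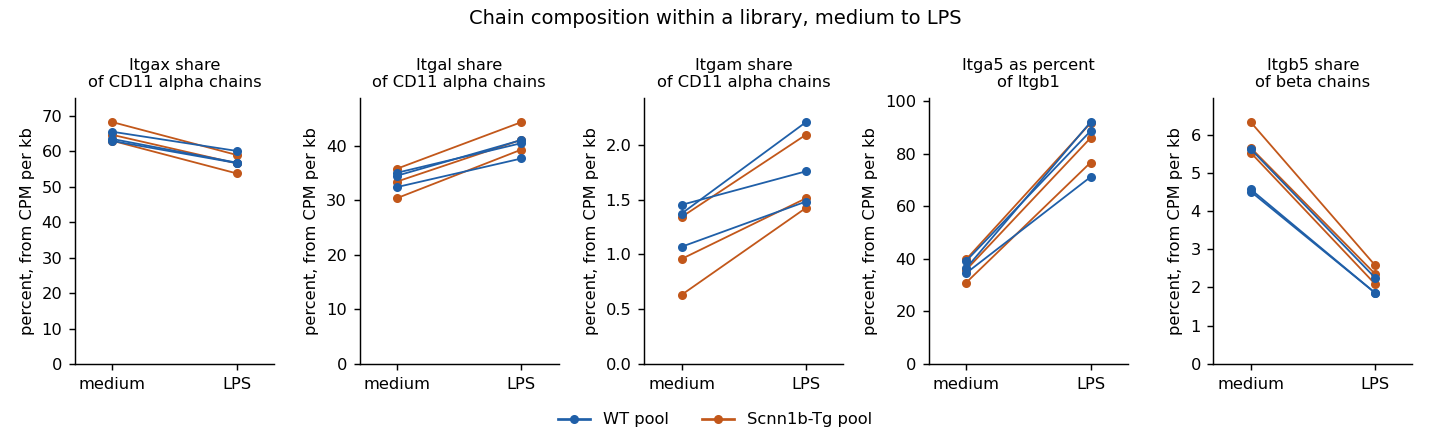
Chain composition in percent, from CPM per kb, with a line from the medium to the LPS library of each pool (blue for WT, orange for Scnn1b-Tg): shares of Itgax, Itgal and Itgam among the CD11 chains, Itga5 as percent of Itgb1, and the share of Itgb5 among the beta chains. All 6 lines go the same way in each panel, and Itga5 goes from 30.9% to 39.8% of Itgb1 in medium to 71.1% to 92.0% with LPS.

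The genes most like the end members were sought among 9100 tested genes with a mean of at least 5 CPM, by the root mean square difference of centred log2 CPM over the 12 libraries. Closest to Icam1 were a gene without a symbol in the annotation used (ENSMUSG00000029333, 0.15 log2), Nfkb2, which encodes a subunit of NF-kappaB (0.16), and Cflar, an inhibitor of caspase-8 (0.16). Their log2 changes with LPS were 1.83, 1.54 and 1.80 in WT and 2.52, 2.09 and 2.17 in Tg. Closest to Itgb5 were the receptor gene Gpr157, the peroxisomal oxidase gene Acox3 and the nuclear pore gene Nup210, each at 0.11 log2. They fell by 1.48, 1.4 and 1.47 in WT and by 1.58, 1.81 and 1.90 in Tg on the log2 scale.

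Of the 18 other integrin chains in the list, 17 were analysed here and 8 passed the filter, none with a mean of 5 CPM. In WT 1 rose and 1 fell with LPS, in Tg 0 rose and 2 fell, and 0 differed between the genotypes or in the interaction (edgeR, adjusted p below 0.05). Over all genes 31.8% were called with LPS in WT, 38.1% in Tg, 0.335% between the genotypes in medium and 0.051% with LPS. Itgb2, Itgb1 and Itgb5 thus held nearly all beta chain RNA.

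Of 20 integrin ligands, 15 were tested, of which 2 rose and 5 fell in WT and 3 rose and 6 fell in Tg with LPS, and 0 differed between the genotypes or in the interaction. That is 7 and 9 of 15 with LPS, against 31.8% and 38.1% of all genes, and the median log2 change of the 15 was -0.34 in WT and -0.41 in Tg, against 0.00 and -0.02 over all genes. Complement C3, whose fragment iC3b the Itgam and Itgax pairs bind, rose (log2 0.83 in WT and 0.72 in Tg, edgeR adjusted p = 0.00369 and 0.00709). Mfge8, the bridge between apoptotic cells and the Itgav receptors, fell by 1.84 and 1.90 on the log2 scale (adjusted p = 1.31e-05 and 7.06e-06), from group means of 225 and 461 CPM in medium to 63.2 and 124 CPM. Osteopontin (Spp1), a ligand of Itgav, Itga5 and Itga4 pairs, fell by 1.66 and 1.45 (adjusted p = 2.83e-05 and 5.20e-05). Adam15, a membrane protease with an integrin-binding domain, fell by 0.69 and 0.62, and the junction protein gene F11r, whose product binds the Itgal pair, by 0.34 and 0.41.

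Of 42 genes that link integrins to the cytoskeleton and to signalling, 39 were tested. With LPS 9 rose and 7 fell in WT, and 14 rose and 8 fell in Tg, which is 16 and 22 of 39, against 31.8% and 38.1% of all genes. In medium and in the interaction 0 differed between the genotypes, and with LPS 1 was higher in Tg. The median log2 change with LPS was 0.05 in WT and 0.08 in Tg, against 0.00 and -0.02 over all genes. The kinase gene Src rose from group means of 1.22 and 0.908 CPM to 20.7 and 27.5 CPM (log2 4.09 in WT and 4.90 in Tg, edgeR adjusted p = 2.31e-06 and 5.21e-07). Rapgef1, an activator of the small GTPase Rap1 that switches integrins on, rose by log2 1.36 and 1.44, the kinase gene Syk by 1.19 and 1.16, and vinculin (Vcl), which ties talin to actin, by 1.19 and 1.14. The tetraspanin genes Cd9 and Cd81 fell by 0.88 and 0.82 and by 0.70 and 0.50, cytohesin-1 (Cyth1), which acts on Itgb2, by 0.66 in both, and the kinase gene Fgr by 0.57 and 0.45. The core integrin activators talin-1 (Tln1; log2 0.24 and -0.12) and kindlin-3 (Fermt3; log2 0.07 and 0.08), named here after their values were seen, did not pass the test in either genotype.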

How the data were processed

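RNA of 12 libraries (3 for each genotype and treatment) was analysed. Per the labels, libraries were made with SMART-Seq v4 and sequenced paired-end. The deposited values are estimated counts per gene, written as whole numbers, which the authors made with HISAT2 on mm10 without strand, StringTie and its script for gene counts, with GENCODE M20. Such estimated counts come from coverage, so a read pair can be worth several of them.

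From these, symbols were assigned from GENCODE M21 (20158 of 20551 genes). Genes were filtered with filterByExpr (10 counts, 15 in all, 13729 kept) and scaled by TMM. They were tested with edgeR 4.0.16 (R 4.3.3) quasi-likelihood tests in 1 fit over the 12 libraries. The labelled batch was a term, adjustment was by Benjamini-Hochberg and tests were two-sided. Standard errors and intervals are from this fit. The study put a library preparation date into its own model, and whether the labelled batch is that date was not settled here. CPM values are TMM-scaled. Log2 values for likeness had a prior count of 2. The steps were tested on simulated data. Alternatives were other normalization, filters, DESeq2 1.42.0, no batch term, fewer samples, counts divided by 5, replicate blocks with edgeR and with limma 3.58.1, and leaving out each library. The 2 samples of a pool were taken as the same animals, from the number and genotype in their titles, and their deviations from the group means correlated in all 6 pools (r = 0.14 to 0.34), so pool blocks were taken as pairing. No library was left out of the main fit.

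All 10 genes were named in every comparison. From the lists, of the genes that averaged 5 CPM or more, up to 4 rises and 4 falls in WT with LPS were named, and any difference between genotypes. For likeness, the 3 nearest genes were named. The members and lists were chosen by name, with earlier results of these data known. Marker summaries counted list genes present in the table. The p-values of the main fit measure the spread between libraries, with the medium and LPS libraries of a pool taken as independent. Those of the sign-flip tests measure the spread between pools.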

Additional observations from a re-analysis of the deposited data

How the results depend on the processing

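Where a gene was called, it stayed called in the same direction in 238 alternatives and lost the call in 4, all of them Itgb1 with LPS in Tg, and 0 reversed. Under the replicate block (pool number, pool as a fixed term, or pool as a random effect) 7 genes were called with LPS in WT in place of 4. Of the added genes, Itgb2 also passed without a block in DESeq2 (adjusted p = 0.0294). In edgeR it passed with genes of a mean of at least 50 counts (adjusted p = 0.0447) and with counts divided by 5 (0.0494). The block changed 1 other call, that of Itgam with LPS in Tg (log2 0.45, adjusted p = 0.0434, limma voom with the pool as a random effect). DESeq2 called 1 gene, Icam1, in Tg against WT in medium and 1, again Icam1, in the interaction, in place of 0 and 0. Over all genes it called 496 in Tg against WT in medium, 146 with LPS and 77 in the interaction, against 46, 7 and 0 in edgeR. Pools of different genotype with the same number (17 or 18) correlated at r = 0.11 to 0.26 in their deviations from the group means. They also share a labelled batch. The study put littermates of both genotypes into the same experiments, but no label ties a number to a litter, so these numbers were used as a block only as an alternative. Leaving out each library gave 4 to 4 genes called with LPS in WT, 6 to 7 in Tg, and 0 to 0 in the genotype comparisons and the interaction.

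Some values that were not called changed sign under some alternatives, and the cause was not tested. Not all of them lay near 0 in the main fit. Tg against WT in medium was -0.24 for Itgam and 0.22 for Itgav, and the interaction was -0.21 for Itgav. All are log2 differences. Without the batch term, Tg against WT was -0.0571 for Itgav in medium, and -0.0150 for Itgax, -0.0165 for Itga5, -0.21 for Itgav and -0.0112 for Itgb1 with LPS. For Itgav with LPS it was -0.00643 without the filter on low counts and -0.000668 with counts divided by 5. With the pool number as replicate block it was -0.11 for Itgax, -0.0601 for Itga5 and -0.0804 for Itgav with LPS. Leaving out each library gave, for LPS in WT, -0.0450 to 0.17 for Itgal, -0.13 to 0.32 for Itgav, and in Tg -0.16 to 0.0326 for Itgal, -0.27 to 0.26 for Itgav. For Tg against WT it gave -0.37 to 0.0413 for Itgam, -0.0706 to 0.48 for Itgav, -0.0791 to 0.0219 for Itgb1 in medium, and -0.0780 to 0.14 for Itgax, -0.0692 to 0.22 for Itga5, -0.14 to 0.25 for Itgav with LPS. For the interaction it gave -0.10 to 0.27 for Itgam, -0.22 to 0.0013 for Itgal, -0.22 to 0.11 for Itga4, -0.42 to 0.12 for Itgav. Leaving out each pool gave, for Tg minus WT, -2.08 to 0.62 points for the Itgal share and -0.16 to 2.47 for the Itgax share in medium, and -0.35 to 0.0559 points for the Itgam share and -0.25 to 0.0838 for the log2 ratio of Itgam to Itgax with LPS. With the longest transcript as length, 2 genes changed rank in WT medium and 4 in Tg medium.

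The 0 genes that edgeR called in the genotype comparisons and the interaction rest on 3 pools a side, of 2 labelled batches, and Itgam and Itga4 on levels of at most 20.4 CPM. Cell counts and purity were not measured here.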

Other observations

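Some low genes of the lists, named here after their values were seen, passed the test. Fyb, an adaptor of T cells and myeloid cells also called ADAP that couples receptors to integrin activation, was the 1 gene of the cytoskeletal and signalling list that differed between the genotypes. It had 3.64 ± 0.552 CPM in WT and 8.11 ± 0.827 CPM in Tg with LPS (SD, n = 3; log2 1.1, SE 0.13, edgeR adjusted p = 0.0183), and 1.37 and 1.65 CPM in medium (log2 0.21, adjusted p = 0.649). The interaction was log2 0.89 (SE 0.21, edgeR adjusted p = 0.412), so a difference in response was not shown.

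Vcam1, the ligand of the Itga4 and Itgb1 pair, had 0.359 CPM in WT medium and 3.13 CPM with LPS, and in Tg 0.446 and 5.30 CPM (log2 3.13 and 3.57, edgeR adjusted p = 0.000358 and 4.79e-05), while Icam2, a ligand of the Itgal pair, went from 1.54 to 0.483 CPM and from 2.25 to 0.580 CPM (log2 -1.67 and -1.95, edgeR adjusted p = 0.00303 and 0.000473). Itga6, a laminin receptor chain, fell from 3.97 to 1.61 CPM and from 4.21 to 1.37 CPM (log2 -1.32 and -1.64, edgeR adjusted p = 0.00132 and 0.000233).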
